A study of Mus musculus with 14 samples.

Results

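Oxidative phosphorylation is the last step of respiration, in which electrons from NADH and succinate pass through complexes of the inner mitochondrial membrane to oxygen and the proton gradient they build drives ATP synthesis. Complex I takes electrons from NADH, complex II from succinate, complex III passes them to cytochrome c, complex IV hands them to oxygen, and complex V is the ATP synthase. Most subunits are encoded in the nucleus and imported, and the remaining core subunits are made inside the mitochondrion from its own genome. Resting T cells draw most of their ATP from this pathway, and activated T cells add glycolysis to it.

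The genes described here were the nuclear genes of complexes I to V, chosen by symbol. The rule took symbols that start with Nduf and the letter a, b, c, s or v and a digit, the 4 Sdh genes, symbols that start with Uqcr, Cyc1, symbols that start with Cox and a digit from 4 to 8, and symbols that start with Atp5. It matched 85 of the 24091 rows of the deposited table, and the rule itself uses no measured value, although the pathway was picked with earlier results of these data known. Of the 85, 83 encode subunits. The other two, Atp5s and Atp5sl, are older names of Dmac2l and Dmac2, which are not subunits, and they were kept apart from summed levels. By symbol, 37 members belonged to complex I, 4 to complex II, 9 to complex III, 18 to complex IV and 17 to complex V, Atp5s and Atp5sl included. Ndufa4 was counted with complex I by its name, although its protein is now placed in complex IV.

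The data were bulk RNA-seq read counts of T cells sorted from the spleen, with 200000 cells per sample. Both groups carried SCLtTA/BCR-ABL, in which a blood stem cell enhancer (SCL) drives a transactivator that switches on the BCR-ABL oncogene when tetracycline is withdrawn, induced for 3 weeks, on a CD45.2 C57Bl/6j background in mice of both sexes aged 6 to 10 weeks. The CP CML group, a model of chronic-phase chronic myeloid leukemia, had 8 Mir142+/+BCR-ABL mice, and the BC CML group, a model of blast crisis, had 6 Mir142-/-BCR-ABL mice. Mir142 was deleted in the whole animal and not in T cells alone, so the comparison is between T cells of mice that differ in every blood lineage. The sample names of the groups carry different number prefixes, which the labels do not explain, so whatever the prefixes mark and the genotype cannot be told apart. The name of BC CML replicate 5 ends in RP, unlike the other names, and the labels do not explain this either.

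Libraries held between 15703702 and 19914531 reads in CP CML and between 16145537 and 19399720 in BC CML. Reads on the Mir142 gene numbered 302 to 650 in the CP CML libraries and 0 in each of the 6 BC CML libraries. Of the 8 T cell identity genes tested, 4 were higher and 1 lower in BC CML, with summed levels of 2815 to 3223 CPM (counts scaled to the library size after TMM normalization) in CP CML and 3164 to 3521 in BC CML. Most lists of markers of other cells moved with the groups. Over all tested genes, 32.6% were higher in BC CML and 32.7% lower. Of 12 myeloid markers 9 were higher and none lower, with summed levels of 87.7 to 461 CPM in CP CML and 551 to 1355 in BC CML, and none of the 12 was at 0 in all libraries. Of 7 B cell markers 5 were higher, and their sums ran from 37.6 to 136 and from 67.4 to 377 CPM. Of 5 erythroid markers tested 2 were higher (40%, near the share over all tested genes), with sums of 17.0 to 70.9 and 54.9 to 89.4. Of 7 naive T cell markers 7 were lower, with sums of 4890 to 6238 and 2683 to 3852, and of 9 genes of activated and effector T cells 7 were higher and 1 lower, with sums of 694 to 838 and 1441 to 1974. The part of these shifts in the values below was not tested beyond the fits with marker scores. In bulk RNA, fewer cells of a type and less RNA per cell cannot be told apart.

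The deleted microRNA gene gives both arms printed here, since their gene is what the groups differ in by design. The mature sequences are from RefSeq (GRCm38.p6), and capitals mark the seed, bases 2 to 8.
miR-142a-5p (chr11:87756867-87756887, + strand): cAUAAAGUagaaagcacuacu
miR-142a-3p (chr11:87756903-87756925, + strand): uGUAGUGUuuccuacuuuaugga
Few members held a seed match. A match was counted in the longest annotated 3′UTR where the letters ACTTTAT or CTTTATA (5p) or ACACTAC or CACTACA (3p) occurred, the sense strand alone. Of 76 members tested that had a 3′UTR, Cox7b had a match to the 5p arm and Sdhc had matches to the 3p arm, so 2 members (2.63%) had either, against 30.5% of the 11532 tested genes with a 3′UTR. The members' 3′UTRs were short, with a median of 199 bases against 1173 bases over all tested genes. Cox7b was higher in BC CML (log2 fold change 0.17, SE 0.04) and Sdhc gave -0.05 (SE 0.04, adjusted p = 0.31).

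Promoter windows of 4 members that the results turn on are printed next, since 2 of them rose and 2 fell. Each window is 300 bases, 250 before and 50 after the annotated start, from RefSeq on GRCm38.p6, on the strand of the gene. Capitals mark matches, on either strand, to the core letters GCGCATGC (NRF1), CCGGAAG (ETS factors, which include GABP) or AAGATGGC (YY1).
Uqcr11 (chr10:80406772-80407071, - strand): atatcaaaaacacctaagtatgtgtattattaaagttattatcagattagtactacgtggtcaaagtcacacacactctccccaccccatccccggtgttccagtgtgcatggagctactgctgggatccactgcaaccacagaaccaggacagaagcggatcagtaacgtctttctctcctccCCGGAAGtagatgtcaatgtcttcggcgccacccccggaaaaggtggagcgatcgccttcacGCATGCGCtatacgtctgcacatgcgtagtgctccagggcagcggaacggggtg
Atp5h (chr11:115419870-115420169, - strand): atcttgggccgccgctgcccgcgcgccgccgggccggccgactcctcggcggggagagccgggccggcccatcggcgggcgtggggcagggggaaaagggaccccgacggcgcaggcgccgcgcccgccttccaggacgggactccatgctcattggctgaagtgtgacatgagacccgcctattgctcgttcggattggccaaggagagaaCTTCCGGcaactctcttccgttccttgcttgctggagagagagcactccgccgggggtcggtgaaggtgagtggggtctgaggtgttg
Uqcrh (chr4:116075021-116075320, - strand): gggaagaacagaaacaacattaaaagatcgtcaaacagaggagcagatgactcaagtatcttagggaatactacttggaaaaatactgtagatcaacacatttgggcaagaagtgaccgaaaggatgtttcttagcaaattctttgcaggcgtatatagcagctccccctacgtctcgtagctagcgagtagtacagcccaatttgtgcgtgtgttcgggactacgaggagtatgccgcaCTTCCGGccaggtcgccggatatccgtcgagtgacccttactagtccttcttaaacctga
Cox7a2l (chr17:83514284-83514583, - strand): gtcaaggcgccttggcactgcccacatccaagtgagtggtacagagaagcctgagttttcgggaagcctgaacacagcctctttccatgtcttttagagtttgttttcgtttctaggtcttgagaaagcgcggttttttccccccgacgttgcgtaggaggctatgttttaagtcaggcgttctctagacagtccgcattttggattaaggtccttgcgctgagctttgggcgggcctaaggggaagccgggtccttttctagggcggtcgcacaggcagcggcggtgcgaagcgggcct
The Uqcr11 window held an ETS core at base 185 and an NRF1 core at base 247. The Uqcrh and Atp5h windows each held an ETS core, at base 241 and base 213, and the Cox7a2l window held none of the 3. Over the 66 members with a window, 10 (15.2%) held the NRF1 core, 16 (24.2%) the ETS core and 9 (13.6%) the YY1 core. The shares over 9548 tested genes with a window were 6.12%, 20.8% and 5.45%, and over all 27025 genes with a window they were 3.05%, 9.93% and 3.19%. By call, the ETS core stood in 7 of 23 members that were higher, 2 of 12 that were lower and 7 of 27 that were not called. The NRF1 core stood in 2, 2 and 6 of them, and the YY1 core in 5, 2 and 2.

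Differences between the groups were small and went both ways. Of the 85 members, 77 passed the filter on low counts and were tested with the whole table of 12248 genes. At an adjusted p below 0.05, 26 members (33.8%) were higher in BC CML, 14 (18.2%) were lower and 37 were not called. Over all tested genes, 32.6% were higher and 32.7% were lower, so the share of members called higher was close to the background. By complex, the share called higher ran from 22.2% in complex III to 38.9% in complex I, and the share called lower from 5.88% in complex V to 25.0% in complex II. All 6 BC CML mice lay above all 8 CP CML mice for 13 members, against a background of 19.3% of genes, and below them for 4 members, against 17.6%. These came to 16.9% and 5.19% of the members tested.

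Most of the differences were small in size. Their log2 fold changes (BC CML over CP CML) had a median of 0.07, from -0.62 to 0.75, where the median over all tested genes was -0.01. The median absolute log2 fold change was 0.12 over the members and 0.28 over all tested genes. Of the 77 tested, only Uqcr11 and Cox7a2l differed by more than 0.5 on the log2 scale, against 29.7% of all tested genes. The standard errors of the members ran from 0.03 to 0.12, so differences of about 0.1 could pass the threshold. The members are abundant, with mean levels in CP CML of 4.65 to 558 CPM among those tested.

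**Figure D1:**
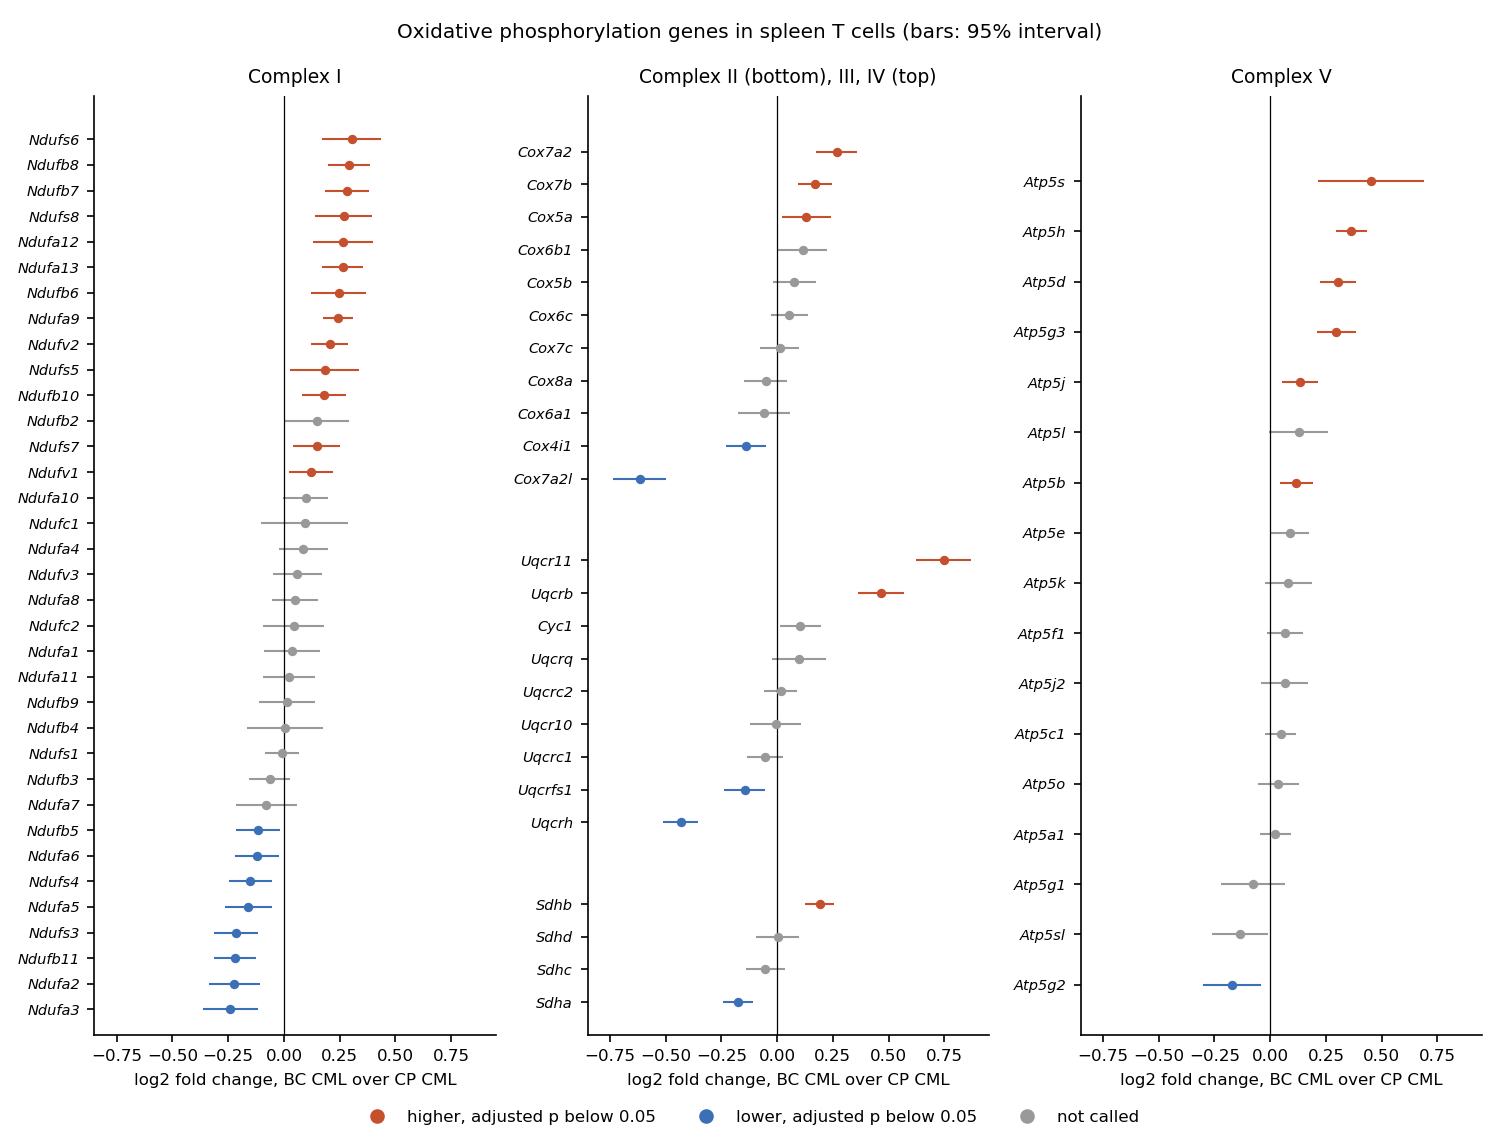
Log2 fold change of 76 of the 77 tested members, BC CML over CP CML, with its 95% interval, by complex. Red points were higher and blue points lower at an adjusted p below 0.05, and grey points were not called. Complex III holds both Uqcr11 at 0.75 and Uqcrh at -0.43, and complex I spans a narrow range from -0.24 to 0.30.

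Summed per length, 1 complex stood apart from the rest. Levels were compared as FPKM, CPM per kilobase of the deposited gene length, summed over the subunits of a complex in each mouse. Usmg5 and 2010107E04Rik, ATP synthase subunits that were lower in BC CML, lie outside the rule and are not in the sum for complex V. The sum for complex V ranged from 1811 to 1937 in CP CML, with a median of 1862, and from 1950 to 2257 in BC CML, with a median of 2038. All 6 BC CML mice were above all 8 CP CML mice, by a narrow margin, and the group means differed by 9.99%. On the scale of CPM without length the difference was 7.69% and the groups overlapped. Without BC CML replicate 5, which had the highest sum, the difference in FPKM was 7.87% and the groups still did not overlap. The margin between the groups was narrower than the difference of Atp5h alone, with means of 247 FPKM in CP CML and 317 in BC CML. Whether the groups separate without Atp5h was not tested.

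For the other complexes the groups overlapped. The mean summed FPKM was 1658 ± 42.6 in CP CML against 1711 ± 114 in BC CML (SD, n = 8 and n = 6) for complex I, a difference of 3.14%. It was 245 ± 8.26 and 241 ± 5.99 for complex II, 738 ± 29.1 and 711 ± 36.9 for complex III, and 1324 ± 47.9 and 1286 ± 80.5 for complex IV. For complex IV this was a difference of -2.87%, and on the scale of CPM it was -6.24%. The FPKM difference was -4.83% without BC CML replicate 5 and -1.57% without BC CML replicate 2. Cox7a2l alone had means of 188 FPKM in CP CML and 122 in BC CML, a larger fall than that of the sum. The sum of complex IV without Cox7a2l was not computed. The sum over all 83 subunits was 5837 ± 153 in CP CML and 6007 ± 350.1 in BC CML, a difference of 2.91%. Without BC CML replicate 5 the difference of that sum was 0.935%. As a share of all reads, the members took 0.537% to 0.586% in CP CML and 0.537% to 0.625% in BC CML. No test was run on these sums.

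**Figure D2:**
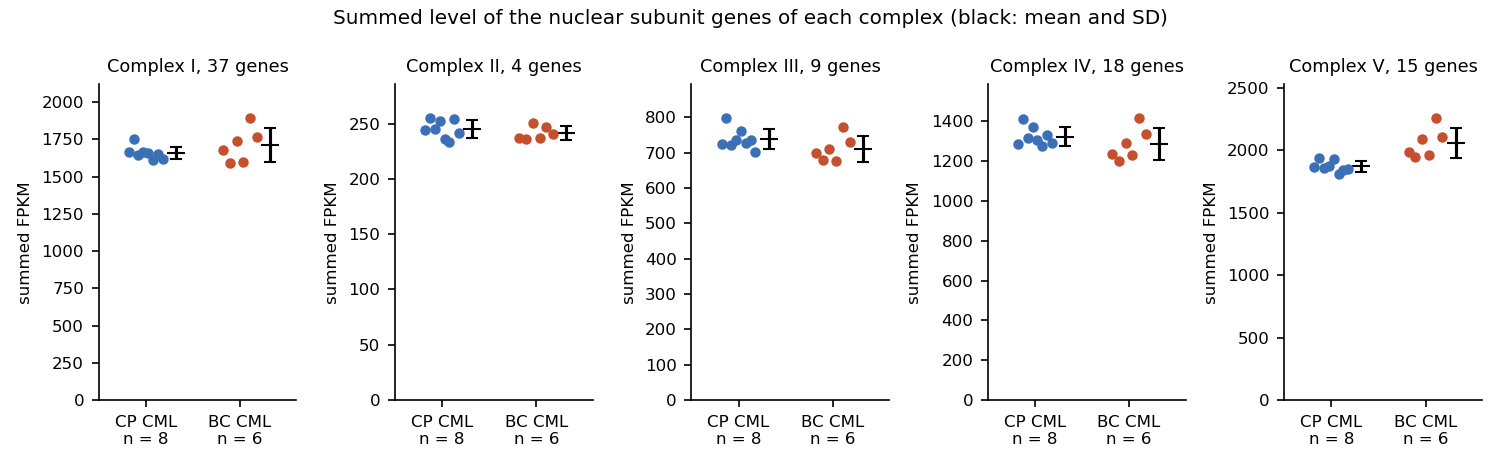
Summed FPKM of the subunits of each complex in every mouse, with the group mean and SD in black. The 6 BC CML mice lie above the 8 CP CML mice for complex V, and the groups overlap for complexes I to IV.

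Complex III held the largest difference of all members. Its 9 genes were all tested, with 2 higher (22.2%, against 32.6% of all tested genes), 2 lower (22.2%, against 32.7%) and 5 not called. Uqcr11, a small accessory subunit, ranged from 15.6 to 18.7 CPM in CP CML, with a median of 16.5, and from 24.8 to 31.5 in BC CML, with a median of 26.8. The groups did not overlap, and the log2 fold change was 0.75 (SE 0.06, adjusted p = 1.2e-08), the largest of all members. It was the only member still called with the naive T cell score in the fit (1.04, adjusted p = 0.0021).

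Uqcrb, a subunit near the site of ubiquinone binding, ranged from 39.2 to 46.6 CPM in CP CML, with a median of 42.0, and from 53.0 to 67.4 in BC CML, with a median of 57.2. No BC CML mouse reached down to the CP CML range, and the log2 fold change was 0.47 (SE 0.05, adjusted p = 5.6e-07). Uqcrh, the hinge protein that links cytochrome c1 to cytochrome c, went the other way. It ranged from 153 to 178 CPM in CP CML, with a median of 159.5, and from 112 to 125 in BC CML, with a median of 119. All BC CML mice were below all CP CML mice, and the log2 fold change was -0.43 (SE 0.04, adjusted p = 3.1e-08).

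The proportions of these accessory subunits follow from their opposite moves. The FPKM of Uqcrh was 10.7 to 11.96 times that of Uqcr11 in CP CML and 4.37 to 5.41 times in BC CML. It was 3.21 to 4.10 times that of Uqcrb in CP CML and 1.71 to 2.01 times in BC CML. Since each of the 3 genes already separated the groups, the ratios describe the size of the shift and add no evidence for it. Uqcrh set the sign for the complex, since without it the summed FPKM of complex III was 11.2% higher in BC CML instead of 3.70% lower, with overlapping groups in both cases.

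The catalytic subunits of complex III gave smaller fold changes. Uqcrfs1, the Rieske iron-sulfur protein, was lower, with 63.8 ± 4.09 CPM in CP CML against 57.7 ± 2.99 CPM in BC CML (SD, n = 8 and n = 6), a log2 fold change of -0.14 (SE 0.05, adjusted p = 0.012). Its groups overlapped, with 57.9 to 71.1 in CP CML and 52.9 to 61.5 in BC CML. Cyc1, cytochrome c1, gave 55.1 ± 3.565 and 59.2 ± 3.01 CPM (log2 fold change 0.10, SE 0.05, adjusted p = 0.060). Uqcrc1 and Uqcrc2, the large core proteins, gave log2 fold changes of -0.06 and 0.02, and Uqcrq and Uqcr10, which are small subunits, gave 0.10 and -0.01. None of these 5 was called.

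**Figure D3:**
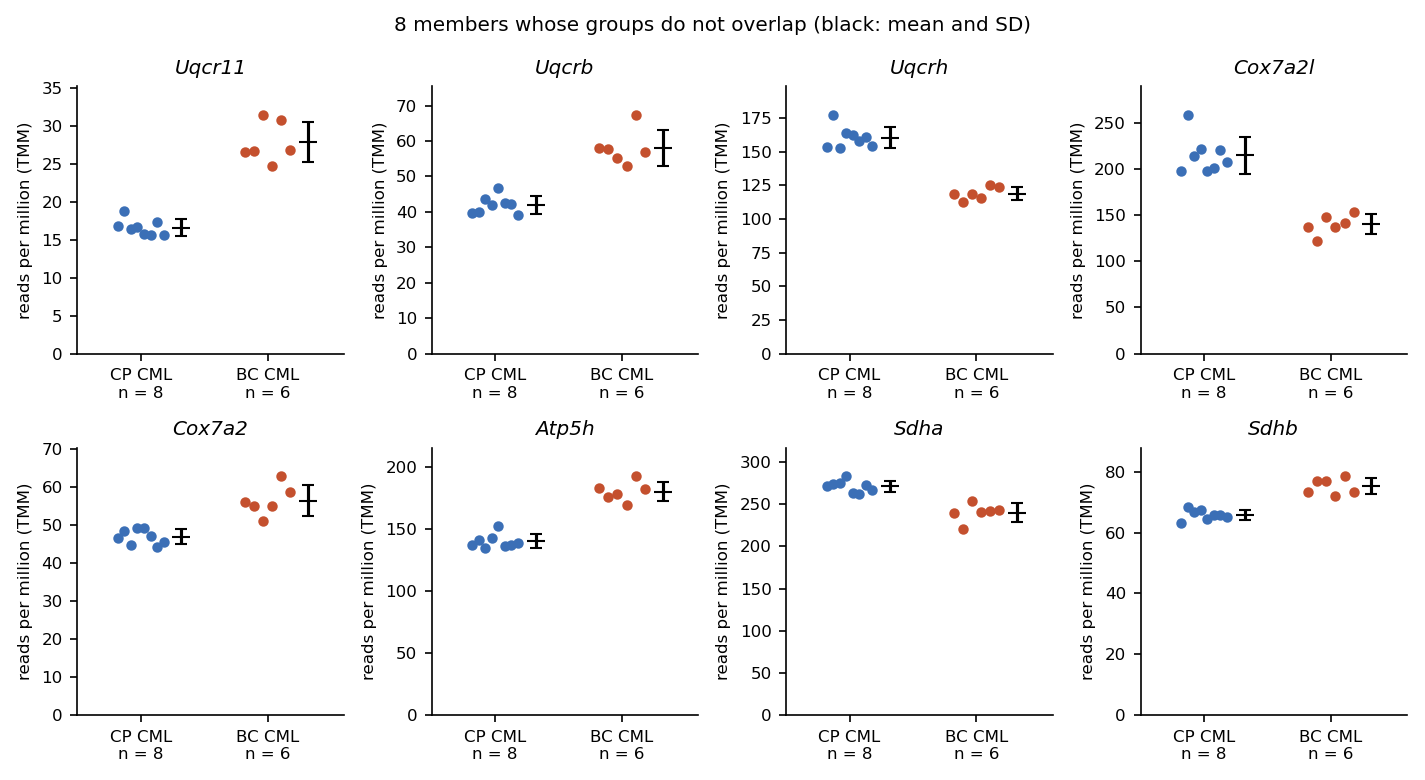
CPM of 8 members in every mouse, with the group mean and SD in black. Uqcr11, Uqcrb, Cox7a2, Atp5h and Sdhb lie higher in all 6 BC CML mice than in all 8 CP CML mice, and Uqcrh, Cox7a2l and Sdha lie lower.

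In complex IV, cytochrome c oxidase, the main differences lay in the Cox7a family. Cox7a2l encodes a Cox7a-related protein known to join complexes III and IV into supercomplexes. This protein is shortened in C57BL/6 mice, the background used here, and supercomplexes were not measured. In CP CML, Cox7a2l ranged from 198 to 259 CPM, with a median of 211. In BC CML it ranged from 122 to 154, with a median of 139.5. The groups did not overlap, and the log2 fold change was -0.62 (SE 0.06, adjusted p = 9.8e-08). With the naive T cell score in the fit it was -0.14 (adjusted p = 0.63). Its relative Cox7a2, the form of the subunit used by most tissues, went up, from 44.1 to 49.3 CPM in CP CML (median 46.8) to 50.9 to 62.8 in BC CML (median 55.4). The log2 fold change of Cox7a2 was 0.27 (SE 0.05, adjusted p = 6.8e-05), and its groups did not overlap either.

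The shares within the family, which follow from the moves of both genes, shifted with them. Cox7a2l took 72.5% to 77.8% of the summed FPKM of Cox7a2 and Cox7a2l in CP CML and 59.4% to 65.6% in BC CML. The summed FPKM of both ranged from 235 to 291 in CP CML and from 180.0 to 212 in BC CML, so the total was lower as well. Cox7a1, the form of heart and skeletal muscle, had at most 5 reads in any library.

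Of the 11 genes of complex IV that were tested, Cox7a2 and Cox7a2l included, 3 were higher (27.3%, against 32.6% of all tested genes), 2 lower (18.2%, against 32.7%) and 6 not called. The differences of the others were smaller than those of Cox7a2 and Cox7a2l. Cox7b was higher, with 70.1 ± 1.98 CPM in CP CML against 78.9 ± 5.02 CPM in BC CML (SD, n = 8 and n = 6), a log2 fold change of 0.17 (SE 0.04, adjusted p = 0.0011), and its groups did not overlap. Cox4i1, the regulatory subunit with the highest level per length in the complex, was lower, at 170 ± 10.8 and 154 ± 7.81 CPM (log2 fold change -0.14, SE 0.05, adjusted p = 0.011). The groups of Cox4i1 overlapped, with 159 to 189 in CP CML and 142.2 to 163 in BC CML.

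Cox5a, which packs against the core of the enzyme beside Cox5b, gave 56.3 ± 3.104 and 61.7 ± 6.06 CPM (log2 fold change 0.13, SE 0.06, adjusted p = 0.048). That call was lost when any of 10 single libraries was left out, BC CML replicate 5 among them, and leaving libraries out moved the fold change between 0.08 and 0.17. Cox5b gave 0.08 (SE 0.05, adjusted p = 0.18). Cox6a1, Cox6b1, Cox6c, Cox7c and Cox8a gave log2 fold changes from -0.06 to 0.12, and none was called.

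The 8 members that were not tested were forms of a subunit used in other tissues. Cox7b2, Cox8b and Cox8c had 0 reads in all 14 libraries, and Ndufa4l2 and Cox4i2, which hypoxia is known to induce, had at most 1 and 2 reads in a library. Cox6b2, a testis form, had 3 to 11 reads per library with overlapping groups. Cox6a2, the form of heart and skeletal muscle, was the exception, with 0 to 3 reads in the CP CML libraries and 10 to 39 in the BC CML libraries, or 0 to 0.16 against 0.55 to 2.01 CPM. The groups of Cox6a2 did not overlap, but its annotated exons share 70 bases, 10.3% of their length, with Itgad on the opposite strand, and Itgad was itself higher in BC CML (log2 fold change 0.78, adjusted p = 0.037). The strand setting of the counting is not given in the sources used here, so reads of the pair cannot be told apart.

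**Figure D4:**
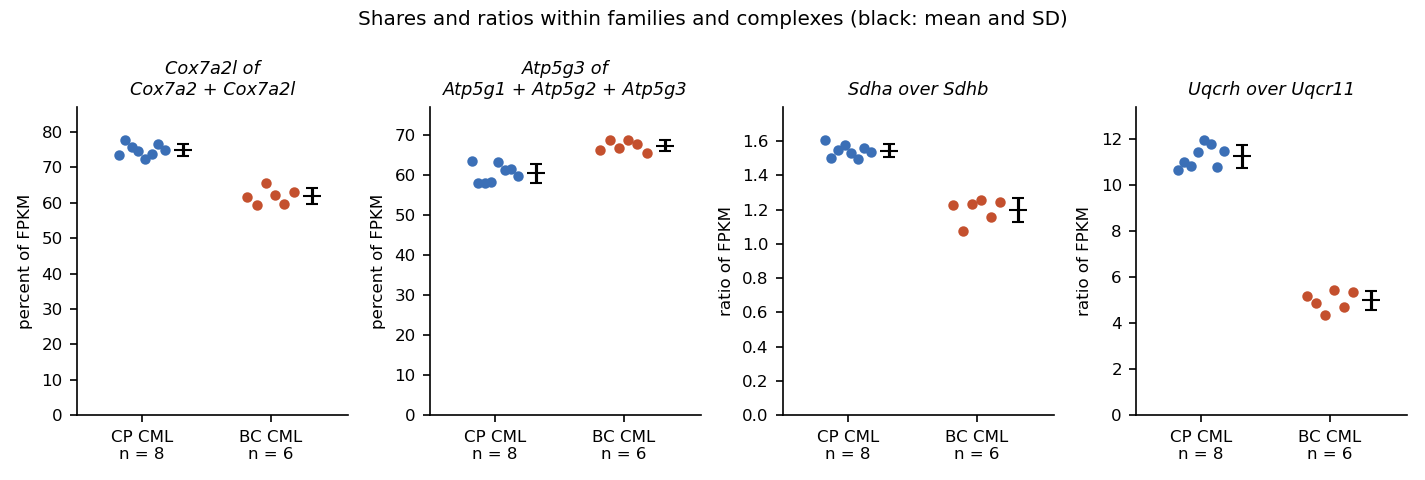
Shares and ratios of FPKM in every mouse, with the group mean and SD in black. The left panels give the percent of family FPKM taken by Cox7a2l (72.5% to 77.8% in CP CML, 59.4% to 65.6% in BC CML) and by Atp5g3, and the right panels give the ratios of Sdha to Sdhb and of Uqcrh to Uqcr11. The groups overlap in none of the panels, and for Cox7a2l, Sdha and Uqcrh this follows from genes that each separated the groups in opposite directions.

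In complex V, 6 of 17 rows were higher (35.3%, against 32.6% of all tested genes), 1 was lower (5.88%, against 32.7%) and 10 were not called, with a median log2 fold change of 0.08. Among the higher ones, Atp5s is not a subunit. Atp5h, subunit d of the peripheral stalk, ranged from 134 to 152 CPM in CP CML, with a median of 138, and from 169 to 193 in BC CML, with a median of 180.2. The groups did not overlap, and the log2 fold change was 0.36 (SE 0.04, adjusted p = 1.0e-07), the largest among the subunits of the complex.

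Within the catalytic head, Atp5d, the delta subunit of the central stalk, was higher, at 78.9 ± 3.55 CPM in CP CML against 97.5 ± 5.46 CPM in BC CML (SD, n = 8 and n = 6), a log2 fold change of 0.30 (SE 0.04, adjusted p = 4.3e-06). Its groups did not overlap. Atp5b, the catalytic beta subunit and the member with the highest level per length, ranged from 540 to 582 CPM in CP CML, with a median of 557.5, and from 569 to 662 in BC CML, with a median of 599. The ranges of Atp5b overlapped, and the log2 fold change was 0.12 (SE 0.04, adjusted p = 0.012). Atp5a1, the alpha subunit that pairs with it, gave 0.02 (95% interval -0.05 to 0.09), and Atp5c1, the gamma subunit, gave 0.05 (SE 0.04, adjusted p = 0.25).

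The c ring, which turns as protons pass, is built from a single mature protein that 3 genes encode. Atp5g3, the most abundant of them, rose from 89.5 to 102 CPM in CP CML (median 96.8) to 110 to 130 in BC CML (median 117). Its groups did not overlap, and the log2 fold change was 0.30 (SE 0.04, adjusted p = 1.5e-05). Atp5g2 was lower, at 35.0 ± 3.565 and 31.0 ± 2.11 CPM (log2 fold change -0.17, SE 0.07, adjusted p = 0.030), a call lost without any of 5 libraries, and Atp5g1 gave -0.08 (SE 0.07, adjusted p = 0.37).

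The mix of the 3 genes shifted accordingly. Atp5g3 made up 57.9% to 63.5% of their summed FPKM in CP CML and 65.6% to 68.8% in BC CML, without overlap. The sum itself ranged from 203 to 239 in CP CML and from 225 to 266 in BC CML, and these ranges overlapped. In the peripheral stalk, Atp5j was higher (log2 fold change 0.13, SE 0.04, adjusted p = 0.0082), while Atp5f1 and Atp5o gave 0.07 and 0.04. The membrane subunits Atp5k, Atp5l and Atp5j2 gave 0.08, 0.13 and 0.07 and were not called.

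Complex I, the largest complex, was spread around a median of 0.07. Of 36 genes tested, 14 were higher (38.9%, against 32.6% of all tested genes), 8 lower (22.2%, against 32.7%) and 14 not called, and a single one differed by more than 0.3 on the log2 scale. The core subunits carry the flavin and the iron-sulfur clusters. Of those described here, Ndufs8 gave the highest fold change (0.27, SE 0.07, adjusted p = 0.0017), followed by Ndufv2 (0.21, SE 0.04, adjusted p = 3.3e-04), and their groups overlapped.

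Ndufs7 and Ndufv1 were closer to the threshold. Ndufs7 ranged from 21.8 to 27.7 CPM in CP CML (median 24.8) and from 24.7 to 28.9 in BC CML (median 28.1), with a log2 fold change of 0.15 (SE 0.05, adjusted p = 0.025) that was not called without BC CML replicate 3 or 5. Ndufv1, which holds the flavin, ranged from 55.0 to 65.0 (median 57.8) and from 58.3 to 69.0 (median 65.2), with 0.12 (SE 0.05, adjusted p = 0.042). The call for Ndufv1 was lost without any of 9 libraries, BC CML replicate 5 among them.

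Ndufs1, the largest core subunit, did not differ beyond its spread, with 98.7 to 114 CPM in CP CML (median 107) and 98.7 to 113 in BC CML (median 106). Its log2 fold change was -0.01 (SE 0.04, adjusted p = 0.85). Ndufs3, also a core subunit, was lower, from 45.1 to 55.8 CPM in CP CML (median 47.3) to 40.2 to 44.6 in BC CML (median 41.1). The groups of Ndufs3 did not overlap, and the log2 fold change was -0.22 (SE 0.05, adjusted p = 0.0011).

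Among the accessory subunits of complex I, which surround the core and serve its assembly and stability, the shares of calls in the large symbol series can be read against 32.6% higher and 32.7% lower over all tested genes. Of 13 Ndufa genes tested, 3 were higher (23.1%) and 4 lower (30.8%), and of 10 Ndufb genes 4 were higher (40%) and 2 lower (20%). Ndufs6, a subunit added late in assembly, was highest in fold change (0.30, SE 0.07, adjusted p = 7.0e-04), at 23.6 ± 1.63 CPM in CP CML against 29.1 ± 3.15 CPM in BC CML (SD, n = 8 and n = 6). Ndufb8 and Ndufb7, of the membrane arm, gave 0.29 (SE 0.05, adjusted p = 3.7e-05) and 0.28 (SE 0.05, adjusted p = 1.0e-04). The groups did not overlap for these 3 genes, nor for Ndufa13 (0.26) and Ndufa9 (0.24).

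At the other end, Ndufa3 fell by 0.24 on the log2 scale (SE 0.06, adjusted p = 0.0025), from 40.2 ± 2.20 to 34.1 ± 3.745 CPM. Ndufa2 and Ndufb11 gave log2 fold changes of -0.22 (SE 0.06, adjusted p = 0.0028) and -0.22 (SE 0.05, adjusted p = 5.9e-04). Their groups overlapped, as did those of Ndufa5, Ndufs4, Ndufa6 and Ndufb5, which were lower by smaller amounts. The call for Ndufb5 (-0.12, adjusted p = 0.049) was lost without any of 9 libraries and with the likelihood ratio test, DESeq2 and RLE factors among other settings, and that for Ndufa6 (-0.12, adjusted p = 0.040) was lost without any of 8 libraries. Ndufa4, the complex IV protein with a complex I name, ranged from 53.0 to 61.1 CPM in CP CML (median 55.6) and from 52.9 to 70.6 in BC CML (median 58.6). It was not called (0.09, SE 0.06, adjusted p = 0.19).

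Complex II, succinate dehydrogenase, is the only complex whose subunits are all nuclear, and its large subunits moved apart. Sdha, the flavoprotein, ranged from 263 to 283 CPM in CP CML (median 272) and from 221 to 254 in BC CML (median 242). It was lower in all 6 BC CML mice, with a log2 fold change of -0.18 (SE 0.03, adjusted p = 1.8e-04). Sdhb, the iron-sulfur subunit, was higher in all 6, from 63.3 to 68.5 (median 65.7) to 72.0 to 78.5 (median 75.1), with a log2 fold change of 0.19 (SE 0.03, adjusted p = 5.9e-05).

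The FPKM of Sdha was 1.496 to 1.61 times that of Sdhb in CP CML and 1.07 to 1.26 times in BC CML, which restates the moves of both genes as a ratio. The membrane anchors Sdhc and Sdhd gave log2 fold changes of -0.05 (95% interval -0.14 to 0.03) and 0.003 (95% interval -0.09 to 0.10), and neither was called. With the myeloid score in the fit, Sdhb kept its call and Sdha did not (-0.13, adjusted p = 0.069).

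The subunits also varied together from mouse to mouse once the group difference was removed. After the group means were taken out of log2(CPM + 0.5), the median correlation over 14 mice was 0.43 for pairs of subunits of the same complex and 0.45 for pairs from different complexes. It was 0.01 for pairs of a subunit and any other tested gene, so subunits of different complexes moved together to a like degree as those of 1 complex. These pairs share libraries, depth and normalization, and no test was made. A single library stood out, since BC CML replicate 5 had the highest value of its group for 58 of the 77 members and a median deviation of 0.13 on the log2 scale, where its median over all tested genes was -0.002. Without that library the median correlations were 0.30 and 0.32. Taken alone, the 8 CP CML mice gave 0.19 and 0.22, and the 6 BC CML mice gave 0.67 and 0.68, or 0.53 and 0.52 without replicate 5. These values for single groups were computed after the pooled ones were seen, and the difference between the groups was not tested.

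Among CP CML mice, replicate 2 was highest for 33 of 77 members, with a median deviation of 0.07. In BC CML, replicates 2 and 4 were lowest for 35 and 29 members, with median deviations of -0.08 and -0.07. BC CML replicate 5 also had the highest score for the proliferation markers, 5.95 where the other BC CML mice had 5.27 to 5.52, and the highest myeloid score, 4.98 where the others had 3.99 to 4.96 (mean log2 CPM over the list). Their part in its high member values was not tested. Without it, 22 members were higher and 14 lower, and the median log2 fold change of the members was 0.03 instead of 0.07. In that fit 7839 of 12321 genes of the whole table were called, 3884 of them higher. For complex I the difference of summed FPKM was then 0.963% instead of 3.14%.

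With the myeloid score (mean log2 CPM of the 12 myeloid markers) as a covariate, 5225 of all 12248 tested genes were called instead of 7986. Of these, 2582 were higher. Of the 40 calls among members, 18 remained, 12 higher and 6 lower. In complex I these were Ndufa9, Ndufa13 and Ndufv2 among the higher genes and Ndufa2, Ndufa6, Ndufb11 and Ndufs4 among the lower. The calls for Sdhb, Uqcr11, Uqcrb, Uqcrh, Cox7a2, Cox7b, Cox7a2l, Atp5d, Atp5g3, Atp5h and Atp5s also remained. Among those lost were Ndufs6, Ndufb8, Ndufb7, Ndufs8, Ndufs3, Ndufa3, Sdha, Uqcrfs1, Cox4i1, Atp5j and Atp5b, whose log2 fold changes kept their sign and lay between -0.21 and 0.24. The score itself ran from 0.94 to 3.81 in CP CML and from 3.99 to 4.98 in BC CML without overlap. The call for Atp5b was also lost with upper-quartile factors.

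**Figure D5:**
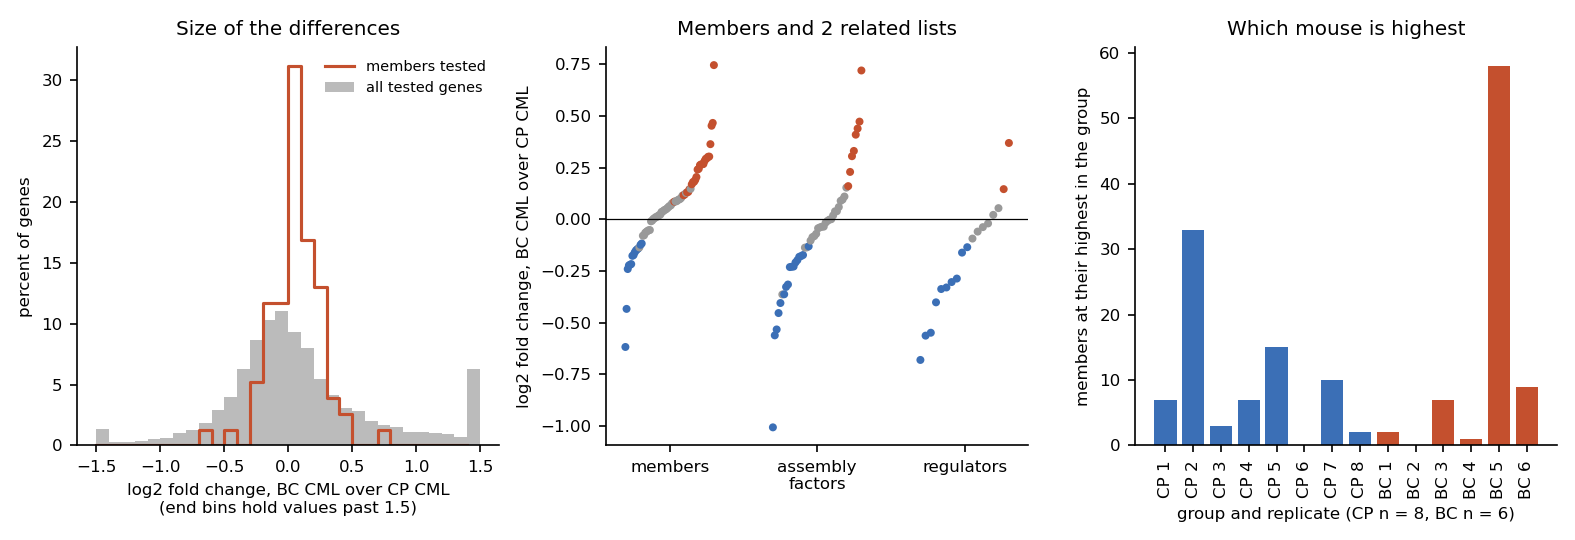
Left, the percent of members and of all tested genes in bins of log2 fold change (width 0.1), where the end bins hold all larger values. Middle, the log2 fold change of each tested member, assembly factor and regulator (red higher, blue lower, grey not called). Right, for how many of the 77 tested members each mouse had the highest value of its group, which was 58 for BC CML replicate 5 and 33 for CP CML replicate 2.

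Genes that serve the same pathway but lie outside the rule were read from lists. Cycs, cytochrome c, which carries electrons from complex III to complex IV, was higher, at 40.2 ± 2.89 CPM in CP CML against 54.0 ± 7.27 CPM in BC CML (SD, n = 8 and n = 6). Its groups did not overlap, and the log2 fold change was 0.43 (SE 0.07, adjusted p = 4.5e-05). Of the other subunits with irregular names, Ndufab1, the mitochondrial acyl carrier protein of complex I, was higher (0.23, SE 0.06, adjusted p = 0.0016). The small ATP synthase subunits Usmg5 and 2010107E04Rik were lower, with -0.15 (SE 0.05, adjusted p = 0.0075) and -0.33 (SE 0.06, adjusted p = 2.1e-04), and Atpif1, the ATPase inhibitor, gave 0.18 (SE 0.10, adjusted p = 0.12). The 13 subunit genes of the mitochondrial genome were not analysed here.

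A list of regulators of mitochondrial gene expression held both nuclear factors and proteins that act in the mitochondrion. Of its 18 genes tested, 2 were higher (11.1%, against 32.6% of all tested genes), 10 lower (55.6%, against 32.7%) and 6 not called, with a median log2 fold change of -0.15. Tfb1m and Tfb2m, a ribosomal RNA methyltransferase and a transcription factor of the mitochondrion, gave -0.68 (SE 0.10, adjusted p = 9.3e-06) and -0.56 (SE 0.07, adjusted p = 8.8e-07). Tfam, which packages mitochondrial DNA, gave -0.33 (SE 0.04, adjusted p = 9.4e-07), from 72.9 to 82.3 CPM in CP CML to 56.3 to 63.7 in BC CML. Pprc1, Polg, Polrmt and Lrpprc were also lower, with -0.55, -0.40, -0.30 and -0.29, and the groups overlapped for none of these 7. Twnk, the mitochondrial DNA helicase, gave -0.06 (SE 0.08, adjusted p = 0.53) and was not called, and Mterf3 gave -0.16 (SE 0.06, adjusted p = 0.036). All of these but Tfb1m and Tfb2m were named after their values were seen, and so were the factors named next other than Esrra and Gabpb1.

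Of the nuclear factors known to drive the subunit genes, Esrra, an orphan nuclear receptor, was higher (0.37, SE 0.07, adjusted p = 1.0e-04), and Gabpb1, a partner of Gabpa in the GABP complex, was higher by 0.15 (SE 0.04, adjusted p = 0.0045). Nrf1, Gabpa and Yy1 gave -0.04, -0.02 and -0.09, Myc and Max gave 0.02 and 0.05, and none of these 5 was called. Gabpb2 gave -0.13 (SE 0.05, adjusted p = 0.021). Ppargc1b, a coactivator, gave -0.34 (SE 0.08, adjusted p = 0.0017), and Ppargc1a was below the filter at no more than 0.70 CPM in any mouse.

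Of 48 assembly factors tested, 8 were higher (16.7%, against 32.6% of all tested genes), 17 lower (35.4%, against 32.7%) and 23 not called, with a median log2 fold change of -0.06. Cmc2, a factor of complex IV, and Uqcc2, a factor of complex III, were highest, with 0.72 (SE 0.11, adjusted p = 1.8e-05) and 0.47 (SE 0.07, adjusted p = 9.1e-06). Sdhaf4, which helps the flavinated Sdha join Sdhb, gave the lowest value of the list at -1.01 (SE 0.11, adjusted p = 4.2e-07). It ranged from 6.48 to 8.77 CPM in CP CML and from 2.98 to 4.56 in BC CML. Nubpl, which serves the iron-sulfur clusters of complex I, gave -0.56 (SE 0.14, adjusted p = 0.0016). Uqcc3, another factor of complex III, gave -0.53 (SE 0.06, adjusted p = 1.0e-06) and was named after its values were seen, as a contrast to Uqcc2.

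Some members share sequence with other genes, which limits their counts. Of the 84 members matched to annotated transcripts, 12 shared over 10% of their 50-base stretches with a transcript of another gene, and none shared over 50%. Among the members with large differences these were Atp5h (23.8%), Uqcrb (19.2%) and Cox7a2l (17.7%), while Uqcr11 shared 1.44%. The called members over 10% also included Ndufs3 (35.8%), Ndufs5 (31.1%) and Atp5g2 (14.8%). Exon bases were shared with another annotated gene by 23 members in 27 pairs, 23 of them on opposite strands. Among called members, Cox5a shared 41.7% of its exon bases with Gm26631, Ndufb6 39.0% with Smim27 and Ndufa13 30.0% with Tssk6, and none of these other genes was tested. Ndufa2 shared 11.5% with Tmco6 and Ndufs3 8.41% with Kbtbd4, and both of those genes were lower in BC CML (log2 fold changes -0.66 and -0.27), as were Ndufa2 and Ndufs3. Atp5f1 and Atp5j share exon bases with Wdr77 and Gabpa on the opposite strand, and Atp5o with Donson on the same strand. Wdr77 and Donson were also lower in BC CML (log2 fold changes -0.12 and -0.44) and Gabpa was not called, and how reads of such pairs were assigned was not tested.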

How the data were processed

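T cells sorted from spleen were profiled by bulk RNA-seq (paired reads of 101 bases) in 14 mice, 8 CP CML and 6 BC CML. The authors trimmed the reads with Trimmomatic and FASTP, aligned them to mm10 with STAR 2.6.0, counted them per gene with HTSeq 0.11.1 and deposited raw counts with positions and gene lengths. The annotation and strand setting are not given in the sources used here.

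Counts were fitted in edgeR 4.0.16 (R 4.3.3): filterByExpr, TMM factors and the robust quasi-likelihood test over 12248 genes with Benjamini-Hochberg adjustment at 0.05. The study's methods name the likelihood ratio test, kept as an alternative. CPM used TMM library sizes, and FPKM is CPM over the deposited length. The fit was tested on simulated data. SE is the log2 fold change over the square root of F. Groups came from the sample labels. Each sample was 1 mouse. Promoters and miRNAs came from RefSeq (GRCm38.p6) and 3′UTRs, exons and transcripts from GENCODE vM21, the same build. Alternatives were other tests, normalizations, filters, marker scores as covariates, the replicate block and leaving out each mouse. Members were named by rule: all could be, with ranges for catalytic subunits, isoform families and the 3 highest and lowest called per complex, and 2 genes per list in each direction. Members and lists were chosen with earlier results of these data known. Libraries of a group differed from each other by 3.08 to 23.1 times sampling noise (chi-square over its degrees of freedom), so none was counted as a repeat. The result of a single member is not reported here, and that member is counted in the totals.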

Additional observations from a re-analysis of the deposited data

Results flagged for a closer look

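Of 168 groups of values examined, 12 had a mouse far from the rest of its group by Dixon's criterion, where chance flags about 1 in 20, or 8.4 groups. In CP CML, replicate 2 was highest and apart for Cox7a2l (259 CPM against 221 for the next mouse), Uqcrh (178 against 164), Ndufa6 (56.5 against 50.5) and the summed level of complex I (1751 FPKM against 1665). CP CML replicate 5 was highest and apart for Atp5h (152 CPM against 142.5) and Atp5j2 (75.8 against 68.7). In BC CML, replicate 5 was highest and apart for Uqcrb (67.4 against 57.9), Atp5j (81.1 against 72.7), Atp5k (38.6 against 32.7) and Atp5l (49.3 against 41.9). BC CML replicate 2 was lowest and apart for Ndufs7 (24.7 against 27.6) and in its total of 16145537 reads. The calls for Cox7a2l, Uqcrh, Atp5h, Uqcrb and Atp5j held without each of these mice, and those for Ndufa6 and Ndufs7 did not hold with every mouse left out in turn.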

How the results depend on the processing

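The counts of 26 members higher and 14 lower were 22 and 12 with the likelihood ratio test, 27 and 13 with DESeq2, with RLE factors and with a filter of over 1 CPM in at least 6 samples, 22 and 14 with total reads alone, 20 and 15 with upper-quartile factors, 24 and 13 without a filter, and 28 and 13 with the proliferation score. Over the whole table these fits called between 7670 and 8719 genes. Leaving out each mouse gave 21 to 27 higher and 11 to 15 lower, with 7721 to 7966 genes called over the whole table. With the myeloid score as a covariate the counts were 12 and 6 (5225 genes of the whole table against 7986), and with the naive T cell score 1 and 0 (1557 genes). The correlation of these scores with the group was 0.80 and -0.95, and the cause of the lost calls was not tested. With the naive T cell score the median log2 fold change of the members was 0.14 instead of 0.07. It was 0.02 with the myeloid score and 0.03 with upper-quartile factors. With the naive T cell score, single values could be as large as before without a call, as for Ndufs8 (0.53), Atp5g3 (0.36), Atp5d (0.34) and Ndufv2 (0.33). Others shrank, as for Cox7a2l (-0.14 instead of -0.62), Uqcrb (0.18 instead of 0.47) and Cox7a2 (0.04 instead of 0.27). Of the 40 called members, 32 kept their call without each mouse, 27 also under the other fits and the replicate block, and 16 also with the myeloid score, among them Uqcr11, Uqcrb, Uqcrh, Cox7a2l, Cox7a2, Atp5h, Atp5d, Atp5g3 and Sdhb. With the naive T cell score the log2 fold change changed sign for Atp5g2 (0.23), Atp5j (-0.029), Cox4i1 (0.10), Ndufa6 (0.052), Ndufb5 (0.12), Ndufs3 (0.0060), Ndufs5 (-0.24), Sdha (0.051) and Uqcrfs1 (0.078), and the cause was not tested. The difference of complex II was -0.02 in log2 FPKM, -0.079 as CPM and 0.067 without Sdha, and that of complex III was 0.15 without Uqcrh. Leaving out each mouse for the summed levels was added after the values were seen. The moves were set against the spread between mice, which leaving out a single mouse can hardly exceed, so this decides nothing. Without BC CML replicate 5 the difference of the sum over all subunits was 0.935% instead of 2.91%. Mice with the same replicate number did not deviate together (mean correlation -0.02 over 6 pairs, 2 of them over 0.1, and 2 best with their own number). The replicate block gave 20 higher and 7 lower, with 7318 genes called over the whole table. The SE of the members, 0.05 at the median and 0.12 at most, limits what these libraries can show.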
